A study of Rattus norvegicus with 8 samples.

Results

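The 38 genes described here encode proteins that build the mitotic spindle, move chromosomes along it and divide the cell. They are a fixed set of gene symbols, chosen with earlier results of these data known. The genes were found by exact symbol in the deposited table, 1 row each, so that 38 of 24059 genes are covered. The counts come from polyA-enriched RNA of GFP-positive germ cells from the testes of transgenic Sprague-Dawley rats that carry the germ cell reporter GCS-EGFP, a genotype shared by every animal. The drug group (4 rats, numbers 2, 3, 6 and 8) received doxorubicin, an anthracycline that traps topoisomerase II on DNA and breaks it, at 5 mg/kg in vivo on postnatal day 6. The control group (4 rats, numbers 1, 4, 5 and 9) received a vehicle that the labels do not name, and cells of both groups were taken 24 h later. Each library is 1 animal.

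Spindle microtubules grow from the poles and from chromatin, are cross-linked and slid by kinesin motors, and are rebuilt at anaphase into a central spindle that places the cleavage furrow. Aurora and Polo-like kinases drive these steps, and the anaphase-promoting complex ends them by destroying securin and the mitotic cyclins. Most of these genes are transcribed in G2 and M phase through promoters with a CHR element (cell cycle genes homology region) and CCAAT boxes. B-MYB and FOXM1 bind there through the MuvB complex to activate the genes, and the DREAM complex binds there to silence them in cells that have left the cycle. In spermatogonia cytokinesis is incomplete, and sister cells stay joined by intercellular bridges that keep the central spindle motor KIF23 and in which TEX14 holds CEP55 back from abscission.

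RefSeq promoter windows (assembly GRCr8, from 250 bases before to 50 bases after the start site) were matched by gene ID for 32 of the 38 genes. A CHR element (TTTGAA or TTCGAA, either strand) stood in 24 of these 32 windows, or 75%, against 19.7% of all 33469 windows and 14.9% of the 12999 windows of tested genes. A CCAAT box (CCAAT, either strand) stood in 71.9% of the members' windows and 37.5% of all windows, and both motifs stood together in 62.5% against 7.95%. In 1 window the motifs shared bases. The windows below run from base -150 to base 30, with 1 as the first transcribed base, and capitals mark the CHR elements and CCAAT boxes. Prc1, Plk1, Aspm, Kif22 and Cdc20 are shown because they were among the genes with the clearest differences, and Numa1 because it had the smallest difference and neither motif. The genes shown for their differences all hold both motifs, so the display gives no comparison by motif. Aurka and Kif18b, with neither motif in the window, had differences of like size and are not shown.
Prc1 (chr1:143659331-143659510, plus strand): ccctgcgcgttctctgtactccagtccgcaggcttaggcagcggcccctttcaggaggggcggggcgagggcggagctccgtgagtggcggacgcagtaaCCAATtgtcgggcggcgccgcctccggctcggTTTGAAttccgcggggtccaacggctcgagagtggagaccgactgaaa
Plk1 (chr1:186147508-186147687, plus strand): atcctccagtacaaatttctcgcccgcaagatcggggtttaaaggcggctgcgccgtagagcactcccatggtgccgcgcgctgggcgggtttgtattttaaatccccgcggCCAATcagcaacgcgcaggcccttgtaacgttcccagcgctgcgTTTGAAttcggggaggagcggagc
Aspm (chr13:53625434-53625613, plus strand): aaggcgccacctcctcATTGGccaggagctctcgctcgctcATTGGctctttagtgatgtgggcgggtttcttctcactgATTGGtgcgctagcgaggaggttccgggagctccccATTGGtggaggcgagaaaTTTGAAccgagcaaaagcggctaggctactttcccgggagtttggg
Kif22 (chr1:191080849-191081028, minus strand): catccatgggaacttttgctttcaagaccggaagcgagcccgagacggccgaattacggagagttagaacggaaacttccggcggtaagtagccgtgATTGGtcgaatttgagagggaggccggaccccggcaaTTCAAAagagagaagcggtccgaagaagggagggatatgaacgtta
Cdc20 (chr5:137255770-137255949, minus strand): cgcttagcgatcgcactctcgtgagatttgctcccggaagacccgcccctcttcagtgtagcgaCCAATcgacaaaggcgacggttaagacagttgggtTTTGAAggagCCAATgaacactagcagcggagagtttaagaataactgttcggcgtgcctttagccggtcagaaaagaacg
Numa1 (chr1:165738102-165738281, plus strand): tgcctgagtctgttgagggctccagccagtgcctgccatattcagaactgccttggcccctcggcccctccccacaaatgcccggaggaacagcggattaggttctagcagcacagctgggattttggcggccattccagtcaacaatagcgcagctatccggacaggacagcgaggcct
In Prc1 the CHR element began at base -18 and the nearer CCAAT box at base -50. In Aspm they began at -16 and -34, in Kif22 at -16 and -53, and in Plk1 the CHR element began at base 7, behind a CCAAT box at -38. Cdc20 had its CHR element at -51 between CCAAT boxes at -86 and -41. These matches describe letters in a window and say nothing of whether a factor was bound.

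**Figure D1:**
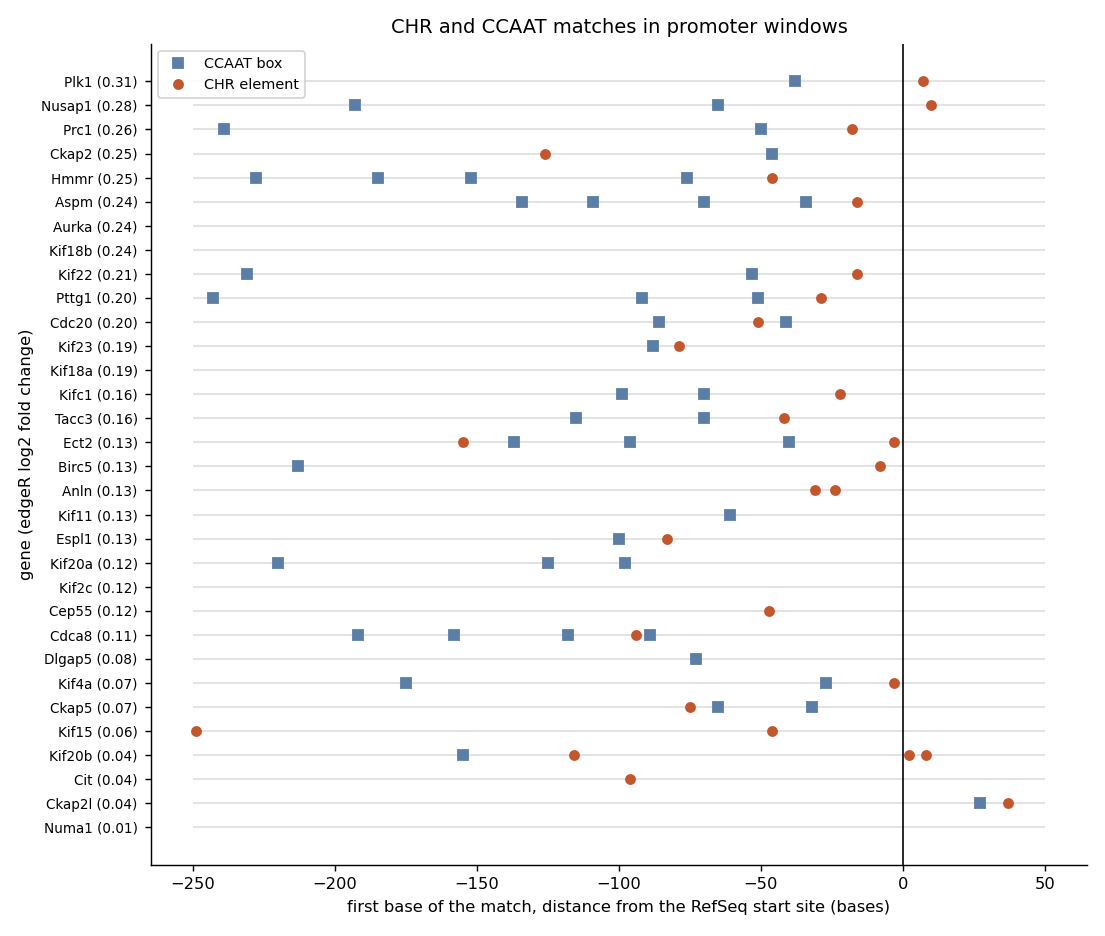
Position of CHR elements (circles) and CCAAT boxes (squares) in the promoter windows of 32 genes, as the distance of the first base of each match from the RefSeq start site (vertical line), with genes ordered by log2 fold change. Of the 29 CHR elements 25 begin within 100 bases of the start site, and Aurka, Kif18b, Kif18a, Kif2c and Numa1 have neither motif in the window. The Aurka window may not hold its promoter.

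Members with and without the motif had similar medians, and the difference between them was not tested. The median log2 fold change (doxorubicin over control, edgeR) was 0.15 for the 24 genes with a CHR element and 0.13 for the 8 without, Aurka among them. Kif18b, with neither motif in its window, had a log2 fold change of 0.24, while Kif20b, with 3 CHR elements, had one of 0.04. Aurka, also with neither motif in its window, had one of 0.24. The annotated start site of Aurka lies just before an ATG, so its window may not hold the promoter. Over all 1935 tested genes with a CHR element in the window the median was -0.0013.

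Total counts ran from 41253789 to 57700876 in control libraries and from 41665749 to 58870999 in treated libraries, and the mitochondrial share overlapped between groups (7.47% to 8.67% and 7.37% to 9.23%). Doxorubicin rat 2 stood apart on the first principal component of all tested genes (score -34.0, against -12.0 to 21.9 in the other 7 rats). It also had the highest level of Cdkn1a, the p53 target p21, at 36.0 CPM (CPM are the counts scaled to a common library size by TMM), where the other treated rats had 15.0 to 16.9 and controls 5.37 to 6.14. The germ cell marker list summed to 2855 to 2943 CPM in controls and 2887 to 2982 CPM in treated rats, with all 12 markers measured in each group. Markers of other testis cells were low in both groups: 67.1 to 74.5 and 64.3 to 76.0 CPM for 9 Sertoli markers, 66.1 to 81.6 and 57.8 to 75.0 CPM for 9 peritubular and stromal markers, and 6.33 to 8.71 and 4.61 to 10.0 CPM for 7 Leydig markers. Endothelial markers (6) summed to 74.2 to 87.3 and 85.0 to 95.1 CPM, carried by Pecam1, and 7 macrophage and leukocyte markers to 2.32 to 2.71 and 2.61 to 3.36 CPM. The 5 erythroid markers summed to 6.33 to 8.20 and 8.18 to 13.7 CPM, highest in rat 2. They moved in opposite directions: Slc4a1, the band 3 anion exchanger, was higher (log2 fold change 1.28, edgeR adjusted p = 0.0339), while the globins Hba-a1 and Hbb had every treated rat below every control (log2 fold changes -0.88 and -1.17, edgeR adjusted p = 0.206 and 0.192, DESeq2 adjusted p = 0.0382 and 0.0243). Of the 7 lists, 2 Leydig markers (Cyp17a1 and Hsd3b1) and 3 macrophage markers (Adgre1, C1qa and C1qb) were at 0 in at least 1 library, and no marker was at 0 in all 8. Sums can hide single markers. Of the 9 peritubular and stromal markers 8 had negative log2 fold changes (median -0.27). Every treated rat lay below every control for 2 of them, where this held for 1.95% of all genes. Of the 12 germ cell markers 6 were negative, and 2 were lower and 0 higher at an unadjusted edgeR p below 0.05. At that threshold 2.56% of all genes were lower and 4.19% higher. Negative values were also found for 7 of 9 Sertoli markers and 5 of 6 tested Leydig markers. Positive values were found for 4 of 5 tested endothelial markers and 4 of 4 tested macrophage and leukocyte markers, and for 47.8% of all genes. Outside the erythroid list, edgeR and DESeq2 called 0 markers after adjustment. The part of other cell types in the results below was not tested.

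All 38 genes were well measured and passed the filter on low counts. The smallest value was 1234 counts, which carries a counting error of 2.85%. In controls they ran from 29.8 CPM for Pttg1 to 382.8 CPM for Numa1, values that are not scaled by transcript length and so give no order between genes. The control rats lay close together, with a coefficient of variation between 0.763% for Cdc20 and 8.09% for Plk1 and a median of 4.18%. The median over all 16976 tested genes, which include genes with lower counts, was 8.28%. The closeness was not particular to the members. The medians were 3.31% for kinetochore and spindle checkpoint genes, 4.17% for M phase regulators and 5.21% for DNA replication genes.

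After doxorubicin every one of the 38 genes had a positive log2 fold change, where 47.8% of all tested genes did. The differences were small. They ran from 0.01 for Numa1 to 0.31 for Plk1, that is from 0.808% to 24.2% higher, with a median of 0.13 against -0.0047 over all genes. Prc1 alone passed edgeR over all genes (adjusted p below 0.05), or 2.63% of the members, where edgeR called 0.106% of all genes higher and 0.00589% lower. DESeq2 called 12 members, all higher, or 31.6%, against 0.897% higher and 0.0621% lower of the 17718 genes it adjusted. limma-voom called 0 members and 0.135% of all genes higher. With an edgeR p below 0.05 before adjustment, 26 members were higher and 0 lower, or 68.4%, where 4.19% of all genes were higher and 2.56% lower. All treated rats lay above all controls for 22 members, or 57.9%, where this held for 2.77% of all genes (and the reverse for 1.95%), and the 12 genes called by DESeq2 were among the 22. The other 16 overlapped between groups. The members were measured in the same 8 rats and are not 38 independent observations. All tested genes also varied more between control rats than the members did (median coefficient of variation 8.28% against 4.18%). The highest upper bound of a 95% interval, that of Plk1, was 1.36-fold. In a bulk sample, more cells in mitosis or G2 and more of a transcript per cell cannot be told apart.

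**Figure D2:**
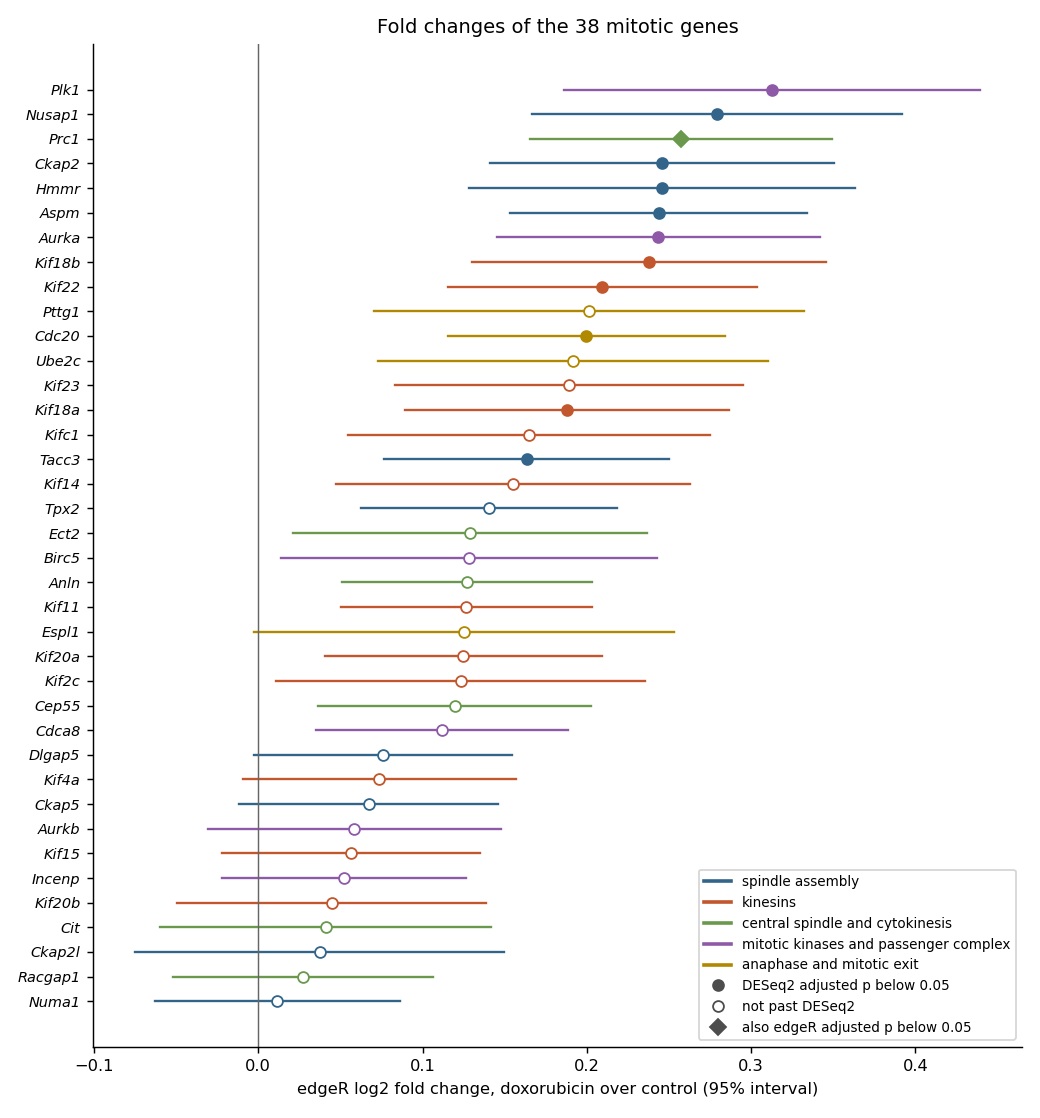
The edgeR log2 fold change of each of the 38 genes with its 95% interval, coloured by role; filled symbols passed DESeq2 (12 genes) and the diamond, Prc1, also passed edgeR. All points lie right of 0, from Numa1 at 0.01 to Plk1 at 0.31, and 12 intervals reach 0 or below.

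Each treated rat had a higher mean over the members than each control rat. The members' mean log2 CPM was 6.85, 6.83, 6.77 and 6.80 in control rats 1, 4, 5 and 9 and 7.01, 6.94, 6.94 and 6.94 in doxorubicin rats 2, 3, 6 and 8. Rat 2 was thus the highest, and it had the highest value of all 8 rats for 26 of the 38 genes. The other treated rats were also above the controls: rats 3, 6 and 8 exceeded the control mean in 37, 38 and 36 genes. The lowest value of each gene was in a control rat for all 38 genes, in 19 of them in control rat 5. Without rat 2 the median log2 fold change was 0.12, all 38 stayed positive, edgeR called Prc1 and DESeq2 called 9 members.

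**Figure D3:**
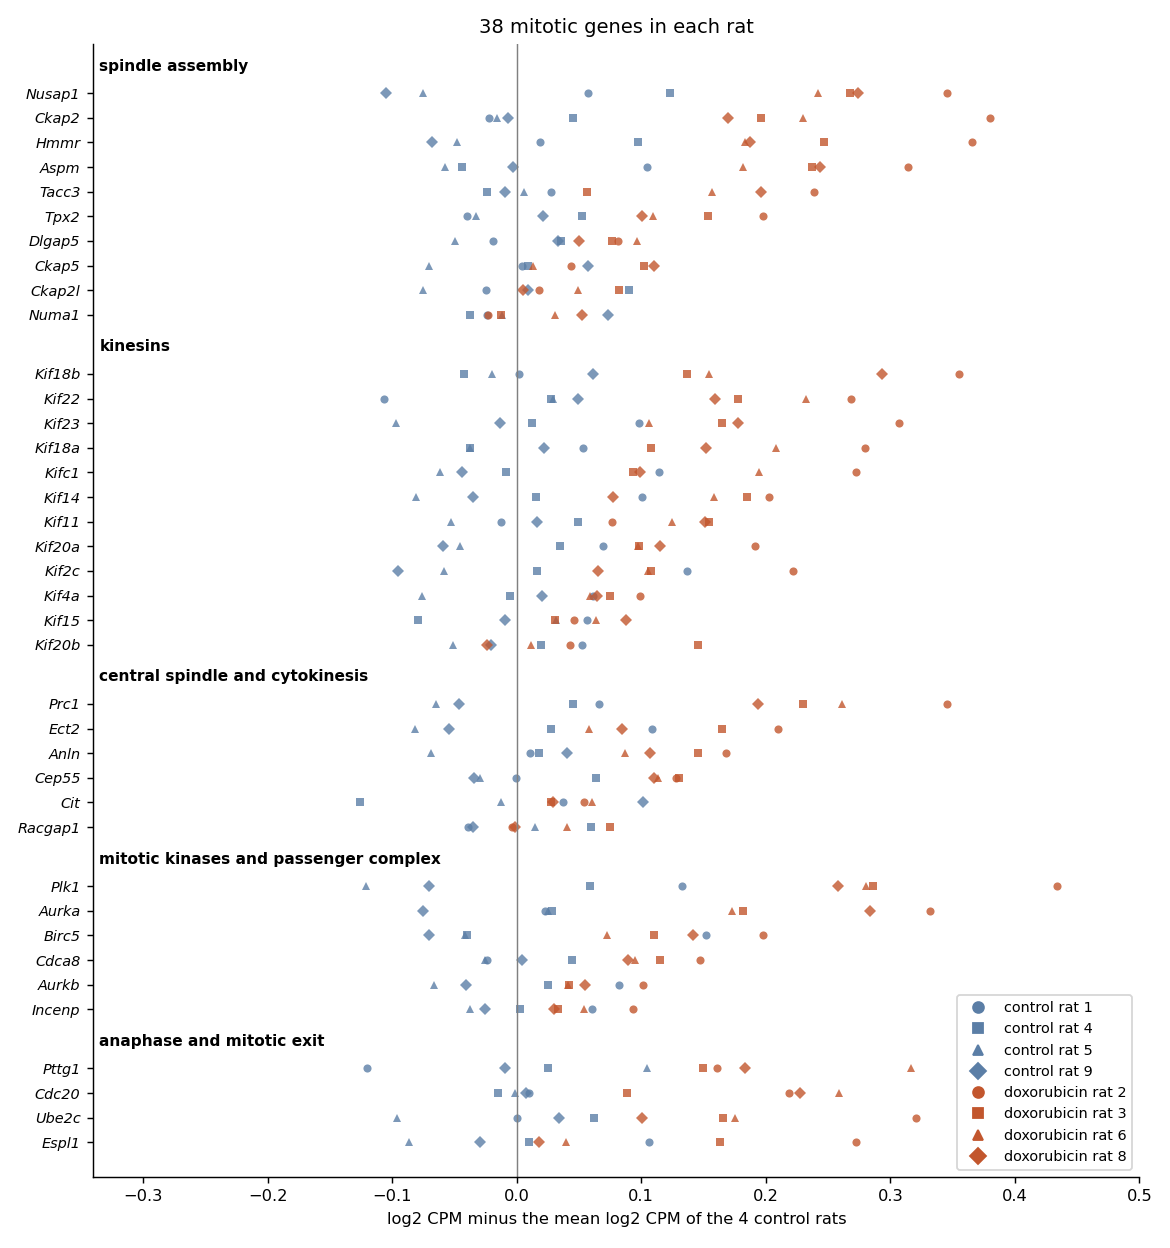
Each gene in each rat, as log2 CPM minus the mean log2 CPM of the 4 control rats; control rats are blue, treated rats orange, and the symbol shape names the rat within its group (no pairing is meant). Treated rats lie to the right of all controls for 22 genes, rat 2 (orange circle) lies farthest right in 26 of 38, and the groups overlap for 16 genes, Numa1, Ckap2l, Racgap1 and Cit among them.

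The central spindle and cytokinesis genes held the member that passed both tests. Prc1 (ENSRNOG00000013057.7) bundles antiparallel microtubules between the separating chromosomes. It measured 206, 204, 189 and 191 CPM in control rats 1, 4, 5 and 9 and 251, 231, 236 and 226 CPM in doxorubicin rats 2, 3, 6 and 8. Its lowest treated rat was above its highest control, and the log2 fold change was 0.26 ± 0.04 (SE, edgeR adjusted p = 0.0446, DESeq2 adjusted p = 8.42e-05). Leaving out any of rats 3, 4, 5, 6, 8 and 9 ended the edgeR call (adjusted p from 0.0831 to 0.217), and leaving out rat 1 or 2 did not. DESeq2 called Prc1 whichever rat was left out.

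The other 5 genes of cell division passed neither test. Anln, the anillin scaffold of the contractile ring, stood at 198, 199, 187 and 202 CPM in the 4 controls and 221, 218, 209 and 212 CPM in the 4 treated rats, in the same order of rats as above. Cep55, which recruits the abscission machinery to the midbody, stood at 60.9, 63.7, 59.7 and 59.5 and 66.6, 66.7, 65.9 and 65.8 CPM. Neither overlapped between groups, but their log2 fold changes of 0.13 ± 0.04 and 0.12 ± 0.04 did not pass edgeR (adjusted p = 0.291 and 0.434) or DESeq2 (adjusted p = 0.106 and 0.207). Ect2, the exchange factor that activates RhoA at the furrow, had a log2 fold change of 0.13 ± 0.05 and overlapped between groups (edgeR adjusted p = 0.606). Cit, the citron kinase of the midbody, had one of 0.04 (95% interval -0.06 to 0.14). Racgap1, the GTPase-activating subunit of centralspindlin, had the lowest log2 fold change of the 6. It stood at 124, 133, 129 and 125 CPM in controls and 128, 135, 131 and 128 CPM in treated rats. Its groups overlapped, and the log2 fold change was 0.03 (95% confidence interval -0.05 to 0.11). Of these 6 genes 1 passed edgeR and DESeq2, and 4 were higher at an unadjusted edgeR p below 0.05. The median log2 fold change of the 6 was 0.12. Over all genes edgeR called 0.106% and DESeq2 0.897% higher, and 4.19% were higher at that unadjusted p.

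Of the 10 spindle assembly proteins, 5 rose by DESeq2 (Aspm, Nusap1, Ckap2, Hmmr and Tacc3) and 0 passed edgeR over all genes, where 6 were higher at an unadjusted p below 0.05. The shares over all genes were 0.897% higher by DESeq2 and 4.19% higher at that unadjusted edgeR p. Aspm (ENSRNOG00000012318.7) focuses microtubules at the spindle pole. It measured 356, 322, 318 and 331 CPM in controls and 412, 391, 376 and 392 CPM in treated rats (log2 fold change 0.24 ± 0.04, edgeR adjusted p = 0.0572, DESeq2 adjusted p = 0.000213). Every treated rat was above control rat 1, the highest control. Nusap1, which bundles microtubules around chromosomes, stood at 81.3, 85.1, 74.2 and 72.7 CPM in controls and 99.3, 94.1, 92.4 and 94.5 CPM in treated rats. The log2 fold change of Nusap1 was 0.28 ± 0.05 (edgeR adjusted p = 0.0784, DESeq2 adjusted p = 0.000629). Control rats 5 and 9 were its low samples, and rat 2 was its high one.

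Ckap2, a spindle microtubule-associated protein, stood at 67.6, 70.8, 67.9 and 68.3 CPM in controls, a narrow range, and at 89.3, 78.7, 80.5 and 77.2 CPM in treated rats (log2 fold change 0.25 ± 0.05, edgeR adjusted p = 0.0808, DESeq2 adjusted p = 0.00162). Hmmr, which acts at the spindle poles, stood at 47.2, 49.8, 45.0 and 44.4 and 60.0, 55.2, 52.9 and 53.0 CPM (log2 fold change 0.25 ± 0.05, edgeR adjusted p = 0.126, DESeq2 adjusted p = 0.00794). Rat 2 was the highest for both genes. DESeq2 lost Hmmr when rat 2, 5 or 9 was left out, where its adjusted p reached 0.121. Tacc3, which cross-links kinetochore fibres with clathrin and the polymerase CKAP5, stood at 178, 172, 175 and 173 CPM in controls and 206, 181, 194 and 199.9 CPM in treated rats (log2 fold change 0.16 ± 0.04, edgeR adjusted p = 0.191, DESeq2 adjusted p = 0.0415). Treated rat 3 lay just above the highest control, and the DESeq2 call held only without control rat 1 or doxorubicin rat 3 among the 8 refits.

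Tpx2, which activates Aurora A and nucleates microtubules near chromatin, did not overlap between groups but did not pass (log2 fold change 0.14 ± 0.04, edgeR adjusted p = 0.217, DESeq2 adjusted p = 0.057). Dlgap5, a Ran-regulated kinetochore fibre protein, Ckap5, the chTOG microtubule polymerase, and Ckap2l had log2 fold changes of 0.08, 0.07 and 0.04, none past either test. Numa1 tethers dynein at the spindle poles and is a nuclear matrix protein in interphase. It stood at 376, 373, 379 and 402 CPM in controls and 376, 379, 391 and 397 CPM in treated rats. The highest value of Numa1 was in control rat 9, the groups overlapped, and its log2 fold change was 0.01 (95% interval -0.06 to 0.09). Numa1 was the only member whose sign changed in any fit, to -0.0022 with edgeR and -0.0008 with DESeq2 when doxorubicin rat 8 was left out.

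**Figure D4:**
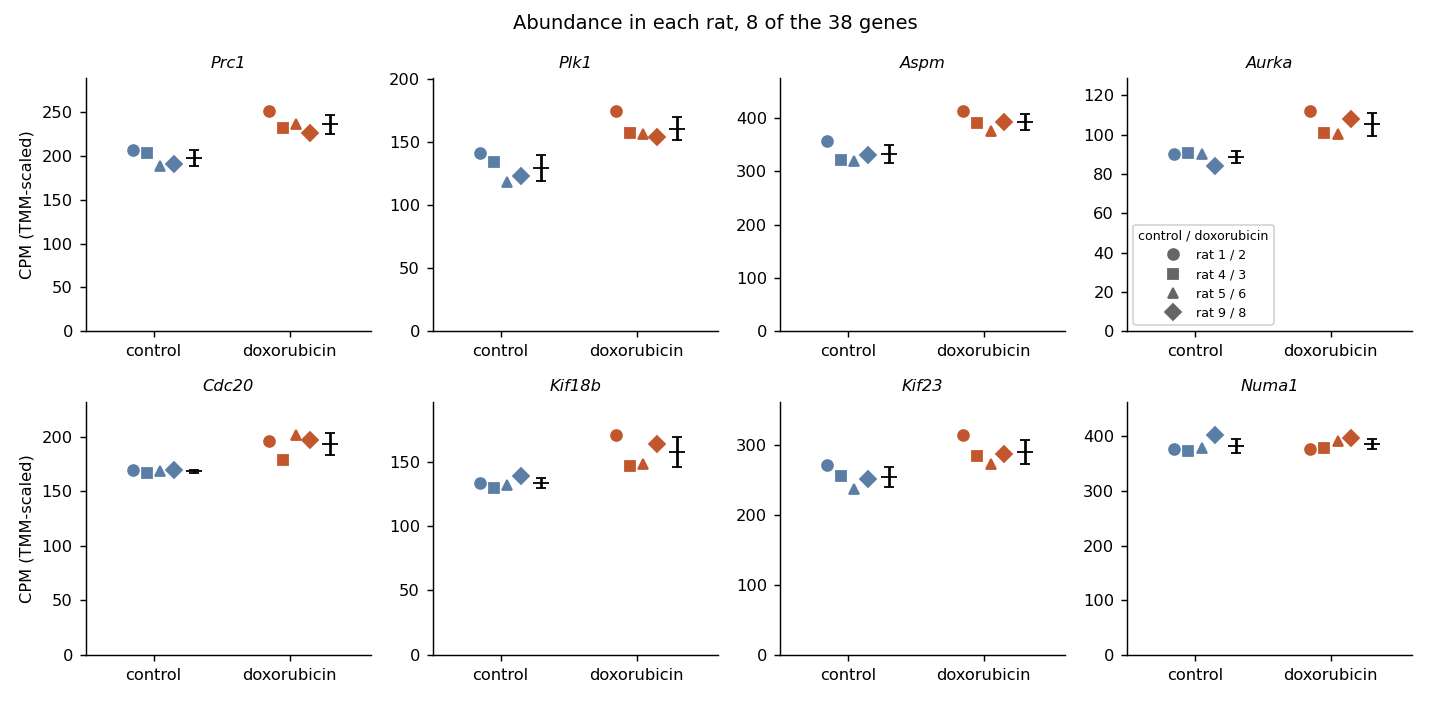
TMM-scaled CPM of 8 genes in each rat on axes that start at 0, with the mean and SD (n = 4) beside each group; the key gives the rat behind each symbol, control first, and symbols do not pair animals. Prc1, Plk1, Aspm, Aurka, Cdc20, Kif18b and Kif23 have every treated rat above every control, and Numa1 overlaps.

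Of the 12 kinesins, 3 rose by DESeq2 (Kif18b, Kif22 and Kif18a) and 0 passed edgeR, where 9 were higher at an unadjusted p below 0.05. Among all genes DESeq2 called 0.897% higher, and 4.19% were higher at that unadjusted edgeR p. Kif18b (ENSRNOG00000021713.6), which shortens astral microtubules, stood at 134, 129.5, 132 and 139 CPM in controls and 171, 147, 148 and 163 CPM in treated rats. Its log2 fold change was 0.24 ± 0.05 (edgeR adjusted p = 0.101, DESeq2 adjusted p = 0.00552). Rats 2 and 8 were higher than rats 3 and 6, and DESeq2 lost the call when rat 4, 5 or 8 was left out (adjusted p up to 0.0887). Kif22, a chromokinesin that pushes chromosome arms toward the equator, stood at 90.8, 99.7, 99.8 and 101 CPM in controls and 118, 111, 115 and 109 CPM in treated rats. The call for Kif22 (log2 fold change 0.21 ± 0.04, edgeR adjusted p = 0.101, DESeq2 adjusted p = 0.00372) held in DESeq2 whichever rat was left out. Kif18a, which dampens chromosome movements at metaphase, stood at 70.1, 65.8, 65.8 and 68.6 and 82.0, 72.8, 78.0 and 75.1 CPM (log2 fold change 0.19 ± 0.05, edgeR adjusted p = 0.181, DESeq2 adjusted p = 0.0263). Its DESeq2 call held only without control rat 1 or doxorubicin rat 3 among the 8 refits.

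The remaining kinesins did not pass edgeR or DESeq2. Kif23, the motor subunit of centralspindlin, Kif11, the Eg5 motor that separates the poles, and Kif20a, which carries the chromosomal passenger complex to the midzone, had no overlap between groups. Their log2 fold changes were 0.19 ± 0.05, 0.13 ± 0.04 and 0.12 ± 0.04 (DESeq2 adjusted p = 0.0783, 0.0999 and 0.255). DESeq2 called Kif23 when control rat 1 or doxorubicin rat 6 was left out. Kifc1, the minus-end motor that clusters poles, Kif14, a cytokinesis motor that binds PRC1 and citron kinase, and Kif2c, the depolymerase MCAK, had log2 fold changes of 0.16, 0.15 and 0.12 with overlap. Control rat 1 was the highest control for these 3 genes, at 124, 51.8 and 158 CPM. Kif4a, Kif15 and Kif20b, motors of the midzone, of spindle bipolarity and of late cytokinesis, were lowest, at log2 fold changes of 0.07, 0.06 and 0.04. Kif20b stood at 107, 104, 99.2 and 101 CPM in controls and 106, 114, 104 and 101 CPM in treated rats, where rat 3 was high and the others lay within the control range.

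Both mitotic entry kinases rose by DESeq2, which called 0.897% of all genes higher, but not by edgeR. Plk1 (ENSRNOG00000018815.8), the Polo-like kinase, had the highest log2 fold change of the 38, 0.31 ± 0.06 (edgeR adjusted p = 0.0801, DESeq2 adjusted p = 0.000529). It stood at 141, 134, 118 and 123 CPM in controls and 174, 157, 156 and 154 CPM in treated rats. Rat 2 was far above the other treated rats, which lay close together and still above control rat 1. Without rat 2 the log2 fold change of Plk1 was 0.27, and DESeq2 called it whichever rat was left out. Aurka (ENSRNOG00000004479.8), the Aurora kinase of the spindle poles, stood at 90.3, 90.6, 90.4 and 84.4 CPM in controls and 112, 101, 100.2 and 108 CPM in treated rats. Its log2 fold change was 0.24 ± 0.05 (edgeR adjusted p = 0.0784, DESeq2 adjusted p = 0.000629), and this DESeq2 call also held in each of the 8 refits.

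The 4 subunits of the chromosomal passenger complex, which corrects kinetochore attachments and then directs cytokinesis, passed neither test. Cdca8, the borealin subunit, was the one subunit with no overlap between groups, at 86.2, 90.3, 86.1 and 87.9 CPM in controls and 97.0, 94.9, 93.6 and 93.2 CPM in treated rats (log2 fold change 0.11 ± 0.04, edgeR adjusted p = 0.422). Birc5, the survivin subunit, had a log2 fold change of 0.13 ± 0.05, and control rat 1, at 73.8 CPM, lay above 3 of the 4 treated rats. Aurkb, the kinase subunit, measured 0.06 as log2 fold change (95% confidence interval -0.03 to 0.15). Incenp, the scaffold, stood at 172, 165, 161 and 162 CPM in controls and 176, 169, 171 and 168 CPM in treated rats, with a log2 fold change of 0.05 (95% confidence interval -0.02 to 0.13). The values of Aurkb and Incenp overlapped between groups.

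Of the 4 genes of anaphase and mitotic exit, Cdc20 rose by DESeq2, 0 passed edgeR and 3 were higher at an unadjusted edgeR p below 0.05. In all genes these shares were 0.897% higher by DESeq2 and 4.19% higher at that unadjusted p. Cdc20 (ENSRNOG00000028415.5), the activator of the anaphase-promoting complex that the spindle checkpoint holds back, stood at 169.7, 167, 168 and 169 CPM in controls, the narrowest control range among the 38. In treated rats it stood at 196, 179, 202 and 197 CPM. Rat 3 was the lowest treated rat, and rat 2 was not the highest. The log2 fold change was 0.20 ± 0.04 (edgeR adjusted p = 0.0808, DESeq2 adjusted p = 0.00159), and edgeR called it without doxorubicin rat 3 (adjusted p = 0.0397). Pttg1, the securin that inhibits separase, stood at 27.4, 30.3, 32.0 and 29.6 CPM in controls and 33.3, 33.0, 37.1 and 33.8 CPM in treated rats (log2 fold change 0.20 ± 0.06, edgeR adjusted p = 0.374, DESeq2 adjusted p = 0.133). Ube2c, the ubiquitin-conjugating enzyme of the complex, stood at 47.7, 49.8, 44.6 and 48.8 and 59.5, 53.5, 53.9 and 51.1 CPM (log2 fold change 0.19 ± 0.05, edgeR adjusted p = 0.319, DESeq2 adjusted p = 0.123). The groups overlapped for neither gene. Espl1, the separase that cuts cohesin, stood at 224, 209, 196 and 203 CPM in controls and 251, 232, 213 and 210.2 CPM in treated rats. Rats 6 and 8 lay among the controls, and its log2 fold change was 0.13 (95% interval -0.0026 to 0.25).

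Other cell cycle genes were grouped in lists by function. For comparison, 4.19% of all genes were higher and 2.56% lower at an unadjusted edgeR p below 0.05. DESeq2 called 0.897% of all genes higher and 0.0621% lower, and limma-voom called 0.135% higher. Of 32 genes of the kinetochore and spindle checkpoint, 24 were positive and 8 negative, with a median log2 fold change of 0.04. edgeR called 0 (at an unadjusted p below 0.05, 11 were higher and 0 lower), limma-voom 0 and DESeq2 2, both higher: Cenpf, a farnesylated kinetochore protein, with 0.18 ± 0.03, and Cenpa, the centromeric histone, with 0.24 ± 0.05. Of 27 M phase regulators found among 29 listed, 22 were positive, with a median of 0.08. edgeR called 0 (at an unadjusted p below 0.05, 12 were higher and 0 lower), limma-voom 1 (Gtse1) and DESeq2 5, all higher: Gtse1, Ccnb1, Ccnf, Troap and Spag5. Gtse1, a microtubule-binding protein that also restrains p53, stood out at 87.2 ± 6.90 CPM in controls and 159.7 ± 35.2 CPM in treated rats (SD, n = 4 each; log2 fold change 0.87 ± 0.15, edgeR adjusted p = 0.107, DESeq2 adjusted p = 9.32e-05). Ccnb1, cyclin B1, had one of 0.16 ± 0.03 (edgeR adjusted p = 0.107, DESeq2 adjusted p = 0.00682).

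General microtubule, spindle pole and abscission genes, most of which cells also use outside mitosis, had 15 positive and 22 negative members among the 37 found of 39 listed, with a median of -0.02. edgeR, limma-voom and DESeq2 called 0 of them. At an unadjusted edgeR p below 0.05, Clasp1, a microtubule plus-end protein, and Tubgcp2, of the gamma-tubulin complex, were higher and Haus4, an augmin subunit, and Pcnt, the centrosome scaffold pericentrin, were lower. Their log2 fold changes were 0.11, 0.10, -0.12 and -0.13. Thus 2 of the 37 were higher and 2 lower at this threshold, where 4.19% of all genes were higher and 2.56% lower. The 16 genes of the MuvB, DREAM and FOXM1 regulators had a median of -0.0052, 7 positive and 9 negative, with 0 called by edgeR, limma-voom or DESeq2 and 2 higher at an unadjusted edgeR p below 0.05. These 2 were Mybl2, which encodes B-MYB, with 0.09 ± 0.03, and E2f5 with 0.09 ± 0.04. Of 42 DNA replication genes 36 were negative, with a median of -0.05, 0 called by edgeR, limma-voom or DESeq2, and 6 lower and 0 higher at an unadjusted edgeR p below 0.05. The helicase subunit Cdc45 and the origin factor Orc6 had log2 fold changes of -0.19 and -0.14. Differences between the lists were not tested. Of the bridge genes, Tex14 stood at 342 ± 13.5 CPM in controls and 355 ± 12.0 CPM in treated rats (log2 fold change 0.05), and Rbm44 had a log2 fold change of 0.10. Neither passed edgeR (adjusted p = 0.888 and 0.582).

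**Figure D5:**
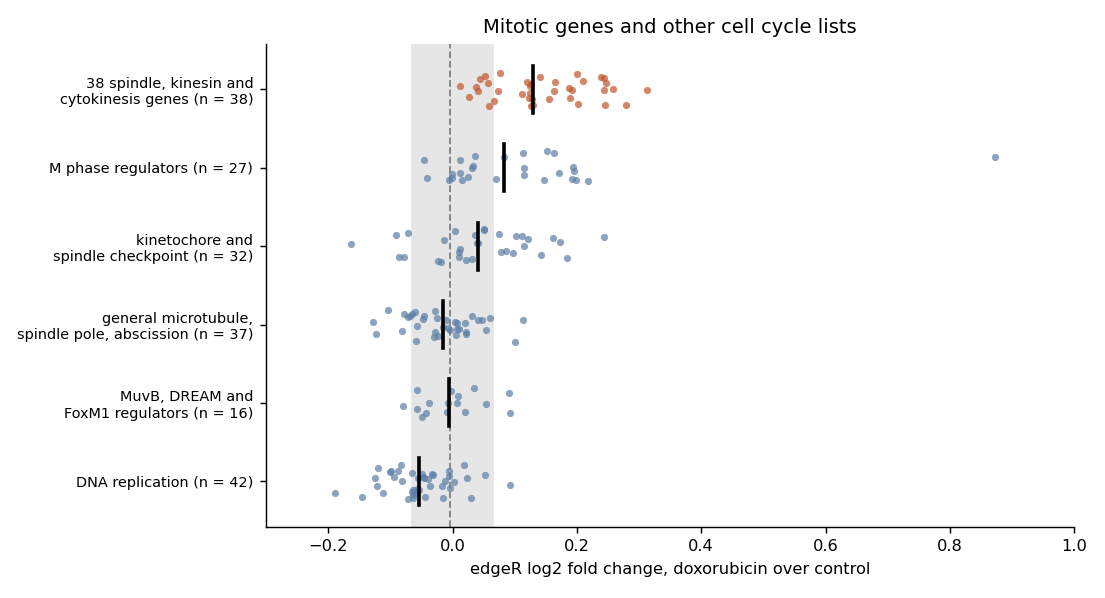
The edgeR log2 fold changes of the 38 genes (orange) and of 5 other cell cycle lists (blue), each point a gene and each black bar a list median; the dashed line is the median of all 16976 tested genes and the grey band their middle quartiles. The 38 genes have a median of 0.13 and no point below 0, general microtubule and regulator genes centre near 0, and DNA replication genes centre at -0.05.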

How the data were processed

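The submitters' processing notes name the build rn6 and, among other tools, kallisto 0.48.0, DESeq2 1.40.2, featureCounts and fastp 0.23.2, with no role or order, and the strand setting is not given in the sources used here. The deposited values are estimated counts per gene for 8 libraries. In each library 32.5% to 33.6% of values were not whole (tolerance 1e-06), so all were rounded. Per the labels' protocols, RNA came from the PicoPure kit and had a RIN above 8.

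All 24059 rows entered the fit, and 16976 genes passed filterByExpr. They were scaled by TMM and tested with edgeR 4.0.16 (R 4.3.3; estimateDisp, glmQLFit with robust = TRUE, glmQLFTest, no covariate), with Benjamini-Hochberg adjustment over all genes kept and a threshold of 0.05. The common biological coefficient of variation was 8.82%. SEs were the absolute log2 fold changes over the square root of F. Log2 CPM used a prior count of 2. DESeq2 1.42.0 and limma 3.58.1 (voom), other scalings and filters, and leaving out each rat were alternatives. The procedure was tested on simulated data.

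The members, the lists and the rule for named genes were chosen with earlier results of these data known. Per-rat values are given for members that passed either test and, in each role, for the 3 with the smallest p and the 1 with the lowest fold change. From each other list the 2 genes with the smallest p are named, and further ones after their values were seen. Promoter windows are from RefSeq GRCr8, another build than that of the counts.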

Additional observations from a re-analysis of the deposited data

Results flagged for a closer look

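In 78 groups of 4 rats (38 genes and their mean, in each group), 5 had 1 rat far from the other 3, where chance gives about 1 in 20, or 3.9. Among treated rats, doxorubicin rat 2 stood apart for Plk1, at 174 CPM against 154 to 157 CPM. The same rat stood apart for the mean log2 CPM of the 38 genes, at 7.01 against 6.94 in each of the others. Among controls, rat 1 was low for Kif22, at 90.8 CPM against 99.7 to 101 CPM, and high for Birc5, at 73.8 CPM against 63.3 to 64.6 CPM. Control rat 9 was low for Aurka, at 84.4 CPM against 90.3 to 90.6 CPM.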

How the results depend on the processing

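No paired analysis was possible because the control and doxorubicin rats share no number in the labels. All 38 genes were positive with edgeR, limma-voom and DESeq2, and with library size only, RLE factors, a mean of at least 1 CPM, no filter and a fit that was not robust, and their median log2 fold change ran from 0.12 (library size only) to 0.13. Leaving out 1 rat gave medians from 0.11 (control rat 5) to 0.16 (control rat 1) with edgeR and 0.11 to 0.17 with DESeq2, the latter refits being added after seeing the data. The log2 fold change of Numa1, up to 0.0404 without control rat 9, turned to -0.0022 with edgeR and -0.0008 with DESeq2 without doxorubicin rat 8. The count of members called, 1 with edgeR, was 12 with DESeq2, 0 with limma-voom and with a mean of at least 1 CPM (Prc1 adjusted p = 0.0541 and 0.0542), and 2 (Aspm and Prc1) with library size only, no filter and a fit that was not robust. Leaving out 1 rat gave 0 to 3 members with edgeR and 8 to 16 with DESeq2, and 8 members passed DESeq2 in each of these 8 refits (Aspm, Nusap1, Ckap2, Kif22, Prc1, Aurka, Plk1 and Cdc20). With edgeR the 3 without control rat 1 were Aspm, Plk1 and Prc1. The cause of these changes was not tested. Over all genes the count of 19 was 170 with DESeq2 and 53 with a fit that was not robust, and ran from 1 (without control rat 5 or doxorubicin rat 8) to 62 (without doxorubicin rat 2) with edgeR and from 105 to 195 with DESeq2. In the 5 other cell cycle lists edgeR called 0 genes, DESeq2 7, limma-voom 1 and a fit that was not robust 2. Leaving out 1 rat gave 0 to 1 with edgeR, where the 1 was Gtse1 without doxorubicin rat 2, and 2 to 9 with DESeq2. With 4 rats a group, differences as small as those of Numa1, Racgap1 and Ckap2l were not detectable.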

Other observations

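Partners of one complex had unlike values in some cases. Of centralspindlin, the motor subunit Kif23 had a log2 fold change of 0.19 and no overlap between groups, and the GTPase-activating subunit Racgap1 had one of 0.03 with overlap. Of the TPX2 and Aurora A pair, Aurka had 0.24 and Tpx2 0.14, and both separated the groups. The sister kinase Aurkb had 0.06, with overlap. Of the TACC3 and CKAP5 pair, Tacc3 had 0.16 and Ckap5 0.07, and Ckap5 overlapped between groups. The related proteins CKAP2 and CKAP2L had 0.25 and 0.04. Differences between partners were not tested.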
